A study of Mus musculus with 34 samples.

Results

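The stromal vascular fraction (SVF) of visceral fat was compared between mice fed a high fat diet (HFD) for 8 weeks and mice fed it for 20 weeks. The comparison used 12 of the 34 libraries, chosen by their labels alone, with 6 HFD libraries at 8 weeks and 6 at 20 weeks. All 12 came from male C57BL/6J mice whose diet, with 60% of its calories from fat, began at 6 weeks of age, so they were 14 and 26 weeks old. Perigonadal fat had been digested with collagenase, the floating adipocytes were taken off, and red cells in the pellet were lysed before RNA extraction. HFD was common to both groups, and the groups differed in weeks on the diet and in age, which cannot be told apart here. Whether libraries of both times were prepared and sequenced together is not given in the sources used. CHOW libraries of the same 2 times (4 at 8 weeks and 5 at 20 weeks) are set beside them because they share the change in age. The labels number the replicates without tying each to a mouse, so p-values measure the spread between these libraries.

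Visceral fat holds several kinds of macrophage. Resident cells along vessels carry Lyve1, Cd163 and C-type lectins of the Cd209 family, and alternatively activated cells under IL-4 and IL-13 make Retnla, Mgl2 and eotaxins. Macrophages that take up lipid from dying adipocytes carry Trem2, Gpnmb and Cd9. Mast cells mature in tissue from circulating precursors, store tryptase, chymase and histamine in granules, and release them when antigen meets IgE on the Fc receptor. Rodent fat also holds progenitors, endothelium, mesothelium and lymphocytes.

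Between 8 and 20 weeks of HFD the tryptase transcript Tpsb2 of mast cells rose 11.1-fold by the ratio of means, the chymase transcript Cma1 rose 10.8-fold, and Retnla of alternatively activated macrophages fell 10.7-fold. Genes of lipid-associated macrophages and inflammatory cytokines were mostly higher at 20 weeks, and genes of resident perivascular macrophages mostly lower. Of 16808 genes tested with limma on log2(TPM + 1), 1475 (8.78%) had a Benjamini-Hochberg adjusted p under 0.05. Of all genes tested, 1029 (6.12%) were higher and 446 (2.65%) lower at 20 weeks. The counts of calls in the gene lists below stand against these shares. An unadjusted p under 0.05 was found with limma for 4571 of the 16808 genes, in either direction. Counts of list members at that threshold in this fit stand against that number. Higher genes made up 69.8% of the calls, against 59.1% with median-ratio scaling, 40.8% with quantile normalization and 49.8% without HFD 8 week replicate 3. The median log2 change of all genes was 0.09 and became -0.06 with quantile normalization, so small changes depend on the scaling. In parentheses after a gene, the first value is its log2 change from 8 to 20 weeks on HFD, on the log2(TPM + 1) scale, unless a level in TPM is given. The 6 libraries of one time lay wholly above or below the 6 of the other for 701 genes (4.17%), of which 620 were also called.

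RNA of red cells and adipocytes was lower at 20 weeks. Erythroid genes took 3.32 to 26.8% of TPM at 8 weeks and 1.26 to 3.05% at 20 weeks, a mean difference of -8.11 percentage points (exact permutation test, two-sided, p 0.00216, the smallest the test can give). The mean log2(TPM + 1) of 20 adipocyte genes was 4.66 to 5.96 at 8 weeks and 3.98 to 4.63 at 20 weeks. The summed TPM of 18 germ cell genes ranged from 14.5 to 1274 at 8 weeks and from 33.4 to 14575 at 20 weeks, with the highest values at 20 weeks in replicates 3, 4 and 5. HFD 8 week replicate 3 held 123060 TPM of seminal vesicle genes, and no other HFD library of these times held more than 2.64. With the adipocyte score as a covariate 126 genes were called in place of 1475. The part of this RNA in the results was not tested. Beside some results a fit without HFD 8 week replicates 3 and 6 and HFD 20 week replicate 5 is given. These 3 libraries held seminal vesicle, most hemoglobin and most germ cell RNA in turn. A fit with the adipocyte score as a covariate is given as well. As the score did not overlap between the HFD times, that fit cannot separate adipocyte RNA from time, here or below. Macrophage, progenitor and endothelial markers were present throughout, with Csf1r at 217 TPM or more, Pdgfra at 53 or more and Pecam1 at 123 or more.

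**Figure D1:**
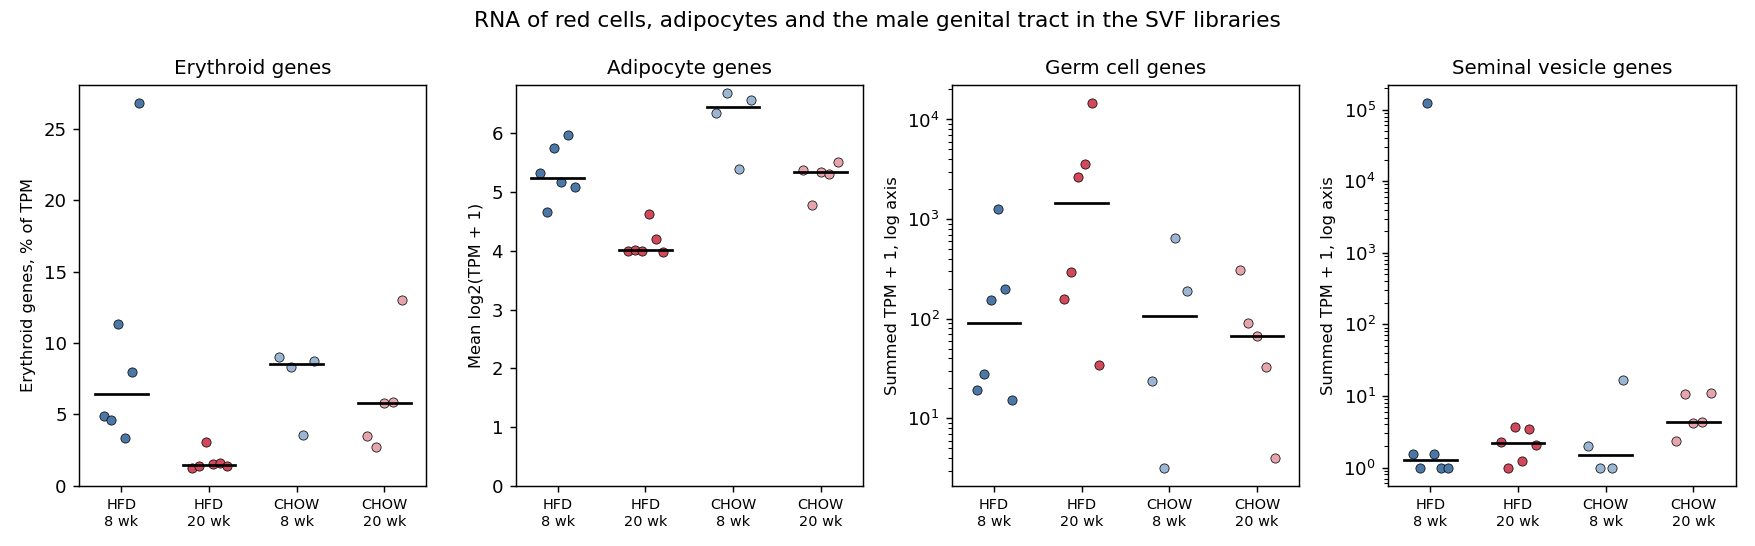
RNA of other cells and tissues by library, with groups on the x axis and, from left to right, the erythroid percent of TPM, the mean log2(TPM + 1) of adipocyte genes, and the summed TPM of germ cell and of seminal vesicle genes (log axes). Points are libraries and lines are medians, and the HFD 20 week libraries sit at the bottom of the erythroid panel (1.26 to 3.05%) and of the adipocyte panel (3.98 to 4.63).

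Mast cell transcripts were among the strongest increases. Among the 15 genes that rose most under the naming rule (called, 5 TPM or more on average in a group, and no overlap), 7 were in the mast cell lists. Tpsb2 and Tpsab1 encode tryptases, Cma1 and Mcpt4 encode chymases, Cpa3 encodes a granule carboxypeptidase, Fcer1a encodes the IgE-binding chain of the Fc receptor, and Tph1 encodes the enzyme that begins serotonin synthesis. Tpsb2 (ENSMUSG00000033825.9, chr17:25366305-25369098 in GRCm38) had 32.5, 34.5, 46.9, 49.2, 65.2 and 55.9 TPM in the 6 libraries of 8 weeks. At 20 weeks it had 705, 864, 538, 191, 310.1 and 541 TPM. The lowest library of 20 weeks was thus above the highest of 8 weeks, and the ratio of the means was 11.1. Its log2 change was 3.32 (SE 0.28, adjusted p 6.27e-07). Cma1 had 24, 24.4, 45.7, 36.3, 64.7 and 39.2 TPM at 8 weeks and 532, 668, 507, 115, 221 and 490.5 TPM at 20 weeks. It changed by 3.26 (SE 0.34, adjusted p 7.69e-06), again with no overlap. For both genes replicates 4 and 5 were the lowest of 20 weeks, and they were also the libraries with most germ cell RNA.

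Fcer1a was among the weakest of these genes at 8 weeks. It had 1.5, 1.1, 3.02, 2.24, 4.84 and 5.06 TPM at 8 weeks and 60.3, 62.2, 48.7, 14, 22.6 and 51.3 TPM at 20 weeks, a log2 change of 3.41 (SE 0.37, adjusted p 7.69e-06). Tpsab1 had 4.55, 4.3, 5.46, 8.69, 12.2 and 13.8 TPM at 8 weeks and 142, 154, 90.8, 31.9, 54.9 and 109 TPM at 20 weeks, and changed by 3.35 (SE 0.36, adjusted p 7.69e-06). Tpsab1 and Tpsb2 are neighbours of similar sequence, and how Salmon divided reads between them is uncertain. Mcpt4 ran from 28.8 to 73.6 TPM (median 48.1) at 8 weeks and from 164 to 748 TPM (median 574) at 20 weeks, with a log2 change of 3.23 (SE 0.32, adjusted p 5.2e-06). Cpa3 ran from 11.9 to 39.6 TPM (median 24.6) at 8 weeks and from 75.1 to 359 TPM (median 270.3) at 20 weeks, with a change of 3.18 (SE 0.34, adjusted p 7.69e-06). None of these libraries overlapped between the times.

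The 2 mast cell lists show how far the increase reached. Of 12 granule genes, 9 passed the filter on low values, 8 were called higher and none lower, and the median log2 change was 3.18. The rest of the called granule genes, given after their values were seen, were Hdc, which makes histamine (25.4 ± 9.49 to 109 ± 43 TPM, SD, n = 6 each), the tryptase Tpsg1 (0.582 ± 0.392 to 7.55 ± 4.24 TPM) and cathepsin G, Ctsg (0.533 ± 0.329 to 6.19 ± 2.52 TPM). Srgn, the granule proteoglycan core that many blood cells also make, was at 655 ± 178 and 641 ± 78.7 TPM and was not called (adjusted p 0.967). Of 16 receptors and regulators, all tested, 11 were called higher and 1 lower, with a median of 1.17. Tph1 ran from 0.742 to 2.55 TPM (median 1.43) at 8 weeks and from 4.96 to 27.6 TPM (median 16.6) at 20 weeks and changed by 2.62 (SE 0.31, adjusted p 2.06e-05). Cyp11a1, which cleaves the side chain of cholesterol, went from 1.71 ± 0.474 to 15.5 ± 7.28 TPM and changed by 2.48 (SE 0.26, adjusted p 7.69e-06). Mrgprb1, a receptor of the Mas-related family, went from 2.27 ± 1.04 to 19.1 ± 12.3 TPM (log2 change 2.39, adjusted p 0.00031).

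Some listed genes that mast cells share with other cells rose less, were not called or fell. Kit, the stem cell factor receptor, was given in every library by rule and had 14.7, 13.9, 5.48, 16.5, 10.1 and 8.75 TPM at 8 weeks and 26.5, 30.001, 16.7, 14.4, 14 and 20.4 TPM at 20 weeks. The times overlapped, and the log2 change was 0.78 (SE 0.22, adjusted p 0.0324). Its call was lost without HFD 20 week replicate 1 or 2 or HFD 8 week replicate 3, 5 or 6, and in 5 of 13 other alternatives. Mitf, a transcription factor of mast cells and macrophages, changed by 0.82, adjusted p 0.00595. Il1rl1, the receptor of IL-33, was not called (0.65, adjusted p 0.144), nor was Gata2 (-0.07, adjusted p 0.888). The only member called lower was Ltc4s, leukotriene C4 synthase, from 74 ± 19.6 to 25.5 ± 10.1 TPM (-1.53, adjusted p 0.00157), a gene that macrophages and eosinophils also express. With the adipocyte score as a covariate, 5 granule genes and 3 receptors and regulators were called. Less RNA per cell and fewer cells of a type cannot be told apart in bulk libraries, here and in every result that follows.

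**Figure D2:**
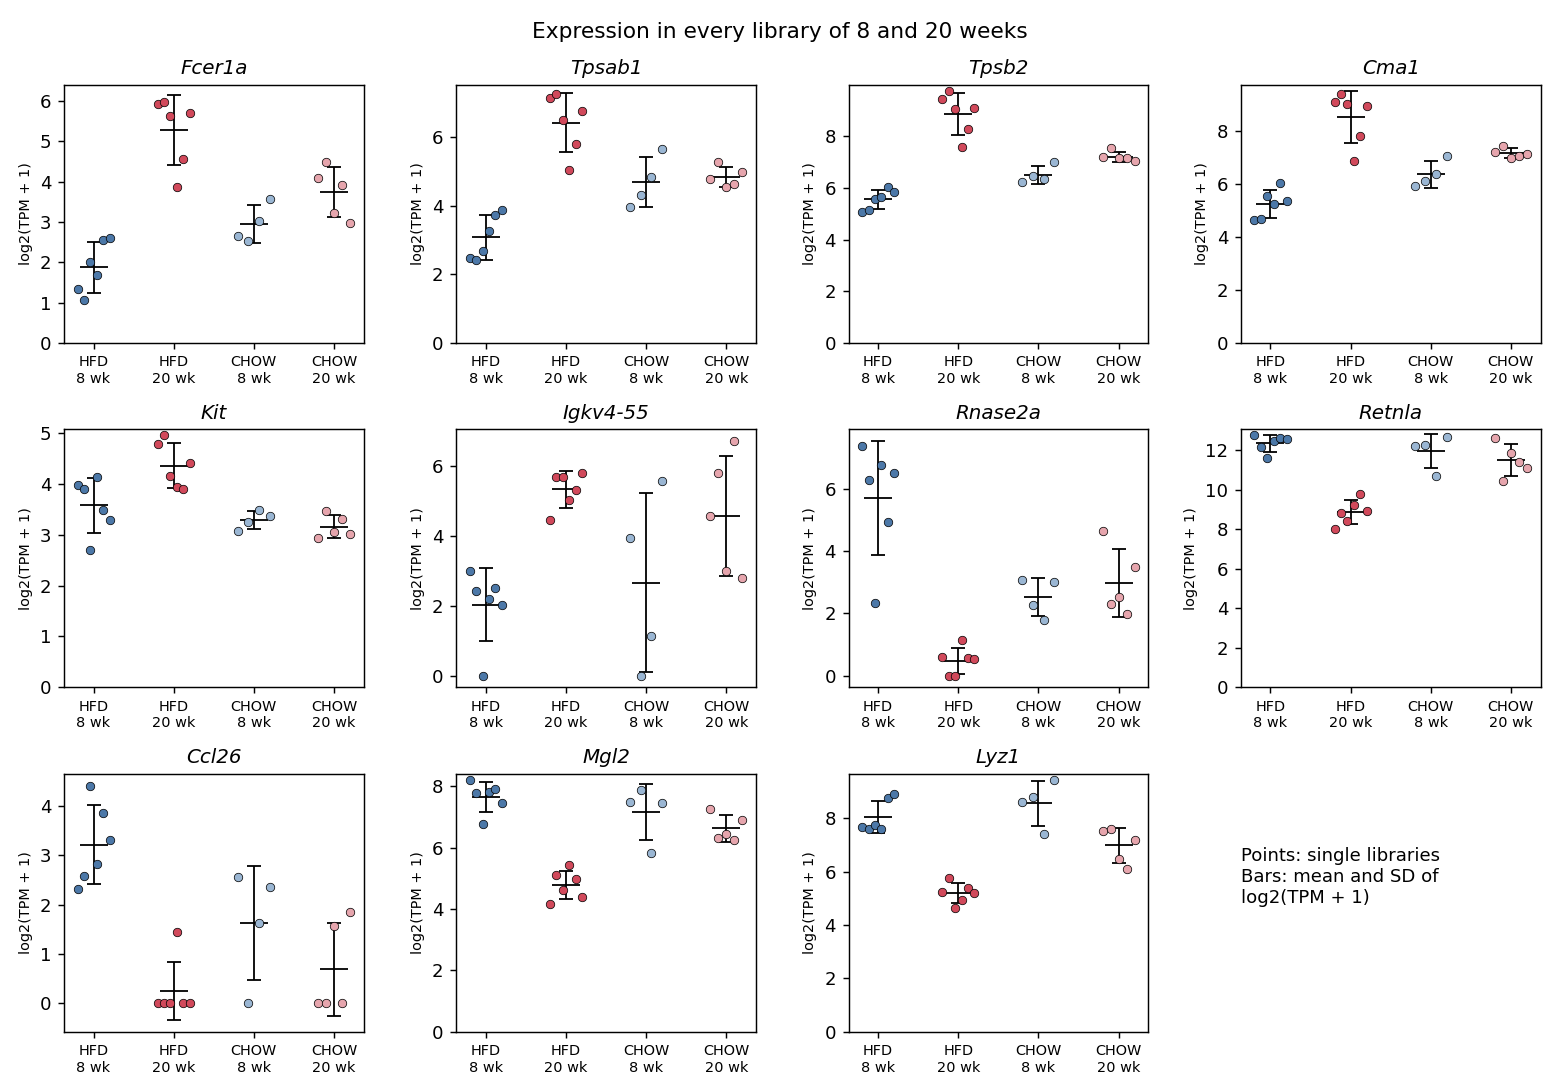
Levels of 11 genes in single libraries, as log2(TPM + 1) on the y axis, for HFD and CHOW at 8 and 20 weeks on the x axis, with bars for the mean and SD. The HFD groups do not overlap for 10 of the 11 genes and overlap for Kit, and the CHOW groups lie closer together in the mast cell panels (Tpsb2 74.1 to 129 TPM at 8 and 129.8 to 185 at 20 weeks).

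Promoter sequence is shown for 4 of these mast cell genes because GATA factors, GATA1 and GATA2, are known regulators of the mast cell lineage. The letters GATAA were searched on both strands in the 250 bases before the gene start in the RefSeq promoter table (GRCm38.p6), without regard to overlap with other motifs. They were found in 22.6% of all 32851 windows and in 12 of the 24 mast cell genes that had an entry, of 28 listed. A listed gene counted if any of its windows held the letters, so shares of genes and of windows are unlike measures. Of the 17 listed genes that were called and had an entry, 9 held it. Tpsab1 and Tpsb2 had no entry. A match is a description of letters and not a binding site. The sequences run 5′ to 3′ on the strand of the gene up to its start, with GATAA, or TTATC where the match is on the other strand, in capitals. The motif began 45 bases before the RefSeq start in Cpa3, 194 in Cma1, 102 in Mcpt4 and 92 in Fcer1a. All 4 genes lie on the minus strand, at chr3:20242182-20242431, chr14:55944676-55944925, chr14:56062314-56062560 and chr1:173227230-173227479 for the bases printed.
Cpa3: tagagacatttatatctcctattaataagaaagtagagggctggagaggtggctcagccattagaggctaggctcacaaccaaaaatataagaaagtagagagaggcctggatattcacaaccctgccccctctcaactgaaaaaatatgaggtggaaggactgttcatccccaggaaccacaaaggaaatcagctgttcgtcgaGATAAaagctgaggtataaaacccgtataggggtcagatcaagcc
Cma1: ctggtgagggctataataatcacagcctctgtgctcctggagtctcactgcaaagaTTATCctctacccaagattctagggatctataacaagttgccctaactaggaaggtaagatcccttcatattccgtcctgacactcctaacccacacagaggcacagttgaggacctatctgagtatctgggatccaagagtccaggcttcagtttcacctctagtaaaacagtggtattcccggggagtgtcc
Mcpt4: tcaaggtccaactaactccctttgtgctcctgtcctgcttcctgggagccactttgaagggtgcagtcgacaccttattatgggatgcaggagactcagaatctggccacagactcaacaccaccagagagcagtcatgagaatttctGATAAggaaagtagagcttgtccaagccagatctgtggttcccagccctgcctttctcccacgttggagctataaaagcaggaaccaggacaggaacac
Fcer1a: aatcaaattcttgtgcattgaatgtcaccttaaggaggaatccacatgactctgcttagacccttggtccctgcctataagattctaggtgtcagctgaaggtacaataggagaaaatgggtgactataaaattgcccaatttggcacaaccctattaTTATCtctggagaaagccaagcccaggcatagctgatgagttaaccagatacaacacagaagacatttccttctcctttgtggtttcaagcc

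Of 10 eosinophil and basophil genes listed, 6 passed the filter, and 2 were called higher and 1 lower. None was called with limma when the adipocyte score was added (3 at an unadjusted p under 0.05). Prss34, a serine protease of basophils and mast cells, went from 1.48 ± 0.657 to 9.5 ± 4.79 TPM (log2 change 2.00, adjusted p 0.000571), and Cd200r3, also known from both cells, went from 2.01 ± 1.28 to 8.32 ± 4.1 TPM (1.61, adjusted p 0.00176). Siglecf, a lectin of eosinophils and of some macrophages, fell from 5.3 ± 3.89 to 1.37 ± 0.399 TPM (-1.23, adjusted p 0.0297). Epx, eosinophil peroxidase, was listed at 0 in all 12 libraries. Ccr3, the eotaxin receptor, was not called (0.16, adjusted p 0.831).

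Retnla (ENSMUSG00000061100.3, chr16:48842551-48844461 in GRCm38) encodes a secreted resistin-like protein of alternatively activated macrophages, and it had the largest log2 change of the 16 genes listed for this program. It had 6888, 4478, 3092, 5525, 6239 and 6133 TPM at 8 weeks. At 20 weeks it had 257, 450.3, 345, 604, 878 and 483 TPM. The highest library of 20 weeks lay well below the lowest of 8 weeks, and the log2 change was -3.48 (SE 0.36, adjusted p 7.69e-06). Mgl2, a galactose-binding lectin of the same cells, had 294, 219, 108, 224, 243 and 174 TPM at 8 weeks and 17.2, 33.5, 23.4, 42, 30.5 and 20.1 TPM at 20 weeks, a change of -2.88 (SE 0.31, adjusted p 7.69e-06). Both kept their call in all 13 alternatives and in all 12 fits that left out a library.

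Retnla is a classical target of STAT6, the factor that IL-4 and IL-13 activate, so its promoter is shown with the letters TTCNNNNGAA, searched on both strands in the same windows. They occurred in 5.85% of all windows and in 3 of the 10 alternative activation genes with an entry, of 16 listed. Genes were again counted by any of their windows, so these shares are unlike measures too. In Retnla they began 145 bases before the RefSeq start. The bases printed, at chr16:48842359-48842550 on the plus strand, stop where the gencode annotation of the gene begins.
Retnla: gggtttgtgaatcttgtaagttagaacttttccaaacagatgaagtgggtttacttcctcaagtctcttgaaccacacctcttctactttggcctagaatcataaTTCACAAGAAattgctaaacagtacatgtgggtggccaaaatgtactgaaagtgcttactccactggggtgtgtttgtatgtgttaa

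The eotaxin genes Ccl24 and Ccl26, whose products attract eosinophils, fell as well. Ccl24 ran from 46.1 to 98.9 TPM (median 74.5) at 8 weeks and from 11.4 to 23.9 TPM (median 16.7) at 20 weeks, with a log2 change of -2.06 (SE 0.28, adjusted p 7.47e-05). Ccl26 had 4.01, 4.98, 20.4, 6.04, 13.6 and 8.88 TPM at 8 weeks, and at 20 weeks was listed at 0 in 5 libraries and at 1.73 TPM in replicate 4. It changed by -2.98 (SE 0.46, adjusted p 0.00031). Both lost their call in the fit that held the adipocyte score, where the change of Ccl24 was -1.01 (adjusted p 0.197). Ccl17, a ligand of CCR4, fell from 11.4 ± 7.58 to 2.74 ± 1.99 TPM (-1.58, adjusted p 0.034), and its call was lost in 6 of the 12 fits that left out a library. Of 16 genes of alternative activation, 6 were called lower and none higher, with a median of -0.85, and 2 were called lower with the adipocyte score in the fit. The sixth, named after its value was seen, was Alox15 (-1.27, adjusted p 0.0287). Other markers of the program were not called, among them Mrc1, the mannose receptor (change -0.09, adjusted p 0.819), Arg1, arginase 1 (-1.23, adjusted p 0.339), Clec10a (-0.43, adjusted p 0.183) and Chil3 (-1.59, adjusted p 0.123). The list was therefore split between members that lost most of their RNA and members whose differences did not pass the test.

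Genes of resident perivascular macrophages showed a similar split. Of 16 listed, 10 were called lower and 1 higher, with a median of -1.19. Lyve1, a hyaluronan receptor, ran from 59.8 to 76.3 TPM (median 67.9) at 8 weeks and from 14.9 to 24.5 TPM (median 17.2) at 20 weeks, and changed by -1.84 (SE 0.22, adjusted p 2.05e-05). Cd163, the receptor for hemoglobin bound to haptoglobin, ran from 86.8 to 137 TPM (median 107) at 8 weeks and from 26 to 66.2 TPM (median 37.9) at 20 weeks, and changed by -1.43 (SE 0.21, adjusted p 0.000163). Neither overlapped between the times. The listed C-type lectins of the Cd209 family fell, and as they resemble each other, reads may be divided wrongly among them. Cd209d ran from 54.5 to 119 TPM (median 96.8) at 8 weeks and from 7.25 to 25.1 TPM (median 17.1) at 20 weeks, a change of -2.50 (SE 0.29, adjusted p 1.59e-05). Cd209g changed by -2.23, Cd209b by -1.99, Cd209f by -1.98 and Cd209a, listed with the dendritic cell genes and not with these, by -2.14. The adjusted p was 3.69e-05 or lower for these 4.

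Further resident genes in the list fell less, namely Cbr2 (-1.37), F13a1, the coagulation factor XIII A chain (-1.26), Fcna (-1.12) and the transcription factor Maf (-0.53). Folr2, often used to mark these cells, was not called, at 375 ± 48.8 to 464 ± 109 TPM (0.29, adjusted p 0.293), nor were Pf4 (0.22, adjusted p 0.417), Stab1 (0.49, adjusted p 0.142) and Timd4 (-0.60, adjusted p 0.0973). Vsig4, a complement receptor of resident macrophages, was called higher (1.32, adjusted p 0.0427), but in only 5 of the 12 fits that left out a library. With the adipocyte score as a covariate 6 of the 16 were called lower, and without the 3 libraries 9 were.

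Rnase2a had the largest change of the genes named under the rule. It encodes a secreted ribonuclease of the eosinophil-associated family. It had 168, 76.8, 4.1, 109, 30.1 and 90.2 TPM at 8 weeks and 0.5, 0, 0, 1.23, 0.471 and 0.44 TPM at 20 weeks, a log2 change of -5.24 (SE 0.62, adjusted p 2.05e-05). Replicate 3, the library with seminal vesicle RNA, was the lowest of 8 weeks and still above every library of 20 weeks. Among its relatives Ear2 fell from 265 ± 59.2 to 91.2 ± 20.8 TPM (-1.52, adjusted p 0.00174) and Rnase6 from 11.9 ± 3.5 to 4.27 ± 2.19 TPM (-1.35, adjusted p 0.00453). Rnase4 (-0.14, adjusted p 0.653), Ang (-0.22, adjusted p 0.421) and Ear1 (0.44, adjusted p 0.411) were not called, and Rnase2b, Ear6, Ear10 and Ear14 did not pass the filter on low values (1.55 TPM at most, in Ear6). Resistin, Retn, which mouse adipocytes secrete, fell from 41.2 ± 22.6 to 6.86 ± 2.08 TPM (-2.27, adjusted p 0.000104), and Retnlg, a gene of neutrophils and monocytes, was not called (-1.75, adjusted p 0.0585). The change of Retn on CHOW was -1.45 (SE 0.37). Rnase2a and Ear2 have close paralogs, so their division of reads is uncertain. Of the 9 genes of these families tested, 5 were called lower, and 2 with the adipocyte score in the fit.

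Lyz1 and Lyz2 encode lysozymes, and Lyz1 alone was called. As the 2 genes resemble each other, reads may be divided wrongly between them. Lyz1 had 202, 192, 211, 195, 431 and 474 TPM at 8 weeks and 36.6, 52.9, 24.1, 29.5, 41.2 and 36.1 TPM at 20 weeks, with no overlap and a change of -2.84 (SE 0.33, adjusted p 1.59e-05). It fell on CHOW too, with a change of -1.58 (SE 0.38), and the interaction was not called (adjusted p 0.313). Lyz2, the lysozyme of nearly all myeloid cells, was at 4816 ± 1384 and 6006 ± 1835 TPM and was not called (0.31, adjusted p 0.483). Ccr2, the receptor that brings monocytes into tissue, ran from 35.6 to 96.1 TPM (median 60.9) at 8 weeks and from 10.3 to 17.1 TPM (median 13) at 20 weeks, a change of -2.11 (SE 0.28, adjusted p 7.29e-05) beside -0.98 (SE 0.33) on CHOW. Other genes of classical monocytes did not pass the test, with Ly6c2 at -0.50, adjusted p 0.357 and Plac8 at -0.24, adjusted p 0.751. Of 10 monocyte genes 1 was called lower (Ccr2) and 1 higher (Ace, 0.62, adjusted p 0.0217), beside 2.65% and 6.12% of all genes tested. Ifitm6, a membrane protein gene expressed in myeloid cells, fell from 46.9 ± 13.7 to 9.74 ± 4.69 TPM (-2.23, adjusted p 0.000143).

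Most genes of lipid-associated macrophages rose. Of 18 listed, 13 were called higher and none lower, with a median of 1.30. Trem2, a lipid receptor, ran from 77.2 to 429 TPM (median 108) at 8 weeks and from 493 to 909 TPM (median 577) at 20 weeks, a log2 change of 2.11 (SE 0.44, adjusted p 0.00448). Gpnmb, a lysosomal glycoprotein, ran from 149.8 to 944 TPM (median 215) at 8 weeks and from 1305 to 2394 TPM (median 1460) at 20 weeks, a change of 2.42 (SE 0.50, adjusted p 0.00398). For both the times did not overlap, and the highest 8 week library (429 TPM of Trem2 and 944 TPM of Gpnmb) stood well above the 8 week median. Spp1, osteopontin, ran from 23.4 to 79.1 TPM (median 45.2) at 8 weeks and from 146 to 419 TPM (median 255) at 20 weeks, a change of 2.49 (SE 0.73, adjusted p 0.0395). Its call was lost in 8 of the 12 fits that left out a library. Atp6v0d2, a subunit of the vacuolar proton pump, changed by 2.07, adjusted p 0.0242.

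Among the other called members, named after their values were seen, were the lysosomal protease Ctsk (194 ± 115 to 644 ± 167 TPM), the phosphatase Acp5 (79.1 ± 48.9 to 218 ± 31.9 TPM), lipoprotein lipase Lpl (712 ± 353 to 1664 ± 258 TPM), acid lipase Lipa (216 ± 104 to 474 ± 121 TPM), the galectin Lgals3 (1930 ± 1112 to 4143 ± 1051 TPM), Cd9 (223 ± 62.4 to 436 ± 81 TPM) and Apoe (3505 ± 1040 to 7578 ± 2782 TPM). Mmp12, Fabp5, Nceh1, Dcstamp and Ocstamp were not called. None of the 18 was called with limma once the adipocyte score was a covariate, and 0 had an unadjusted p under 0.05. That score differed between the times with no overlap, and its part in these changes and the part of time cannot be told apart. Without the 3 libraries 7 of the 18 were called higher.

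Some general macrophage genes rose as well. Of 12 listed, 5 were called higher and none lower, with a median of 0.72. Cd68, an endosomal glycoprotein, ran from 321 to 917 TPM (median 497) at 8 weeks and from 966 to 1549 TPM (median 1196) at 20 weeks, a change of 1.16 (SE 0.25, adjusted p 0.00498). Adgre1, which encodes F4/80, went from 187 ± 75 to 369 ± 98.3 TPM (1.03, adjusted p 0.0203). The complement C1q chains C1qa, C1qb and C1qc changed by 0.67, 0.77 and 0.85. Csf1r (0.28, adjusted p 0.348), Mertk (0.42, adjusted p 0.177) and Itgam (-0.11, adjusted p 0.87) were not called. Without the 3 libraries 1 of the 12 was called higher, and with the adipocyte covariate none was with limma (1 at an unadjusted p under 0.05).

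Lysosomal genes were higher at 20 weeks where they were called. Of 26 listed, 12 were called higher and none lower, with a median of 0.56. Without the 3 libraries 6 were called, and with the adipocyte score in the fit none was with limma (1 at an unadjusted p under 0.05), with a median of 0.018. Ctsd, cathepsin D, ran from 871 to 2543 TPM (median 1161) at 8 weeks and from 2964 to 5223 TPM (median 3962) at 20 weeks, a change of 1.48 (SE 0.29, adjusted p 0.00233). Cathepsins B and L, Ctsb and Ctsl, changed by 1.12 and 1.04. Tfeb, a regulator of lysosomal genes, was not called (0.12, adjusted p 0.77). Of 10 genes of cholesterol efflux and lipid handling, 4 were called higher. They were the transporter Abca1 (0.99, adjusted p 0.00529), the sterol sensor Nr1h3 (0.88, adjusted p 0.0166), the scavenger receptor Msr1 (1.31, adjusted p 0.0444) and the esterifying enzyme Soat1 (1.11, adjusted p 0.0321). Without the 3 libraries 1 of these 10 was called, and with the adipocyte score 0 were with limma (0 at an unadjusted p under 0.05). None of 19 cholesterol synthesis genes was called with limma in either direction (3 lower at an unadjusted p under 0.05).

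**Figure D3:**
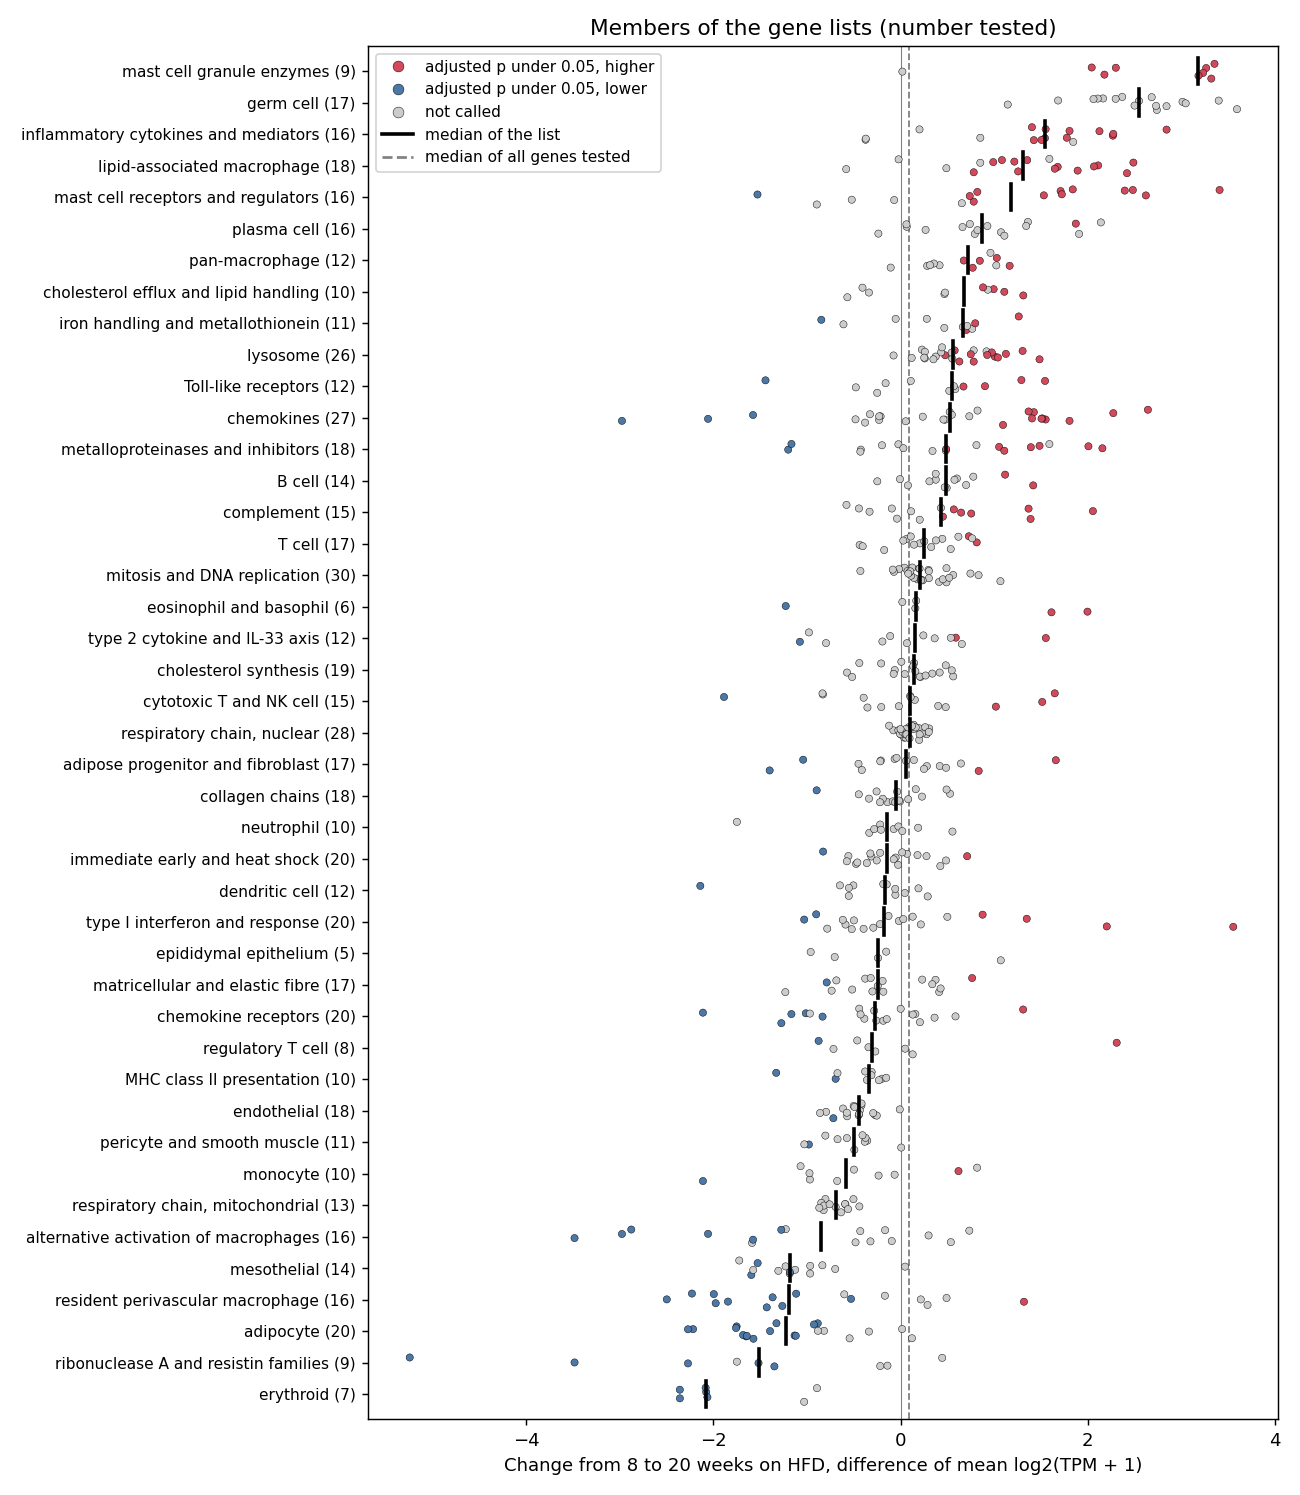
Log2 change from 8 to 20 weeks on HFD (x axis) for the tested members of 43 gene lists (y axis, number tested in parentheses), with called members in red (higher) or blue (lower), black bars for list medians and a dashed line for the median of all genes. The mast cell granule list has its median at 3.18 and the erythroid list at -2.08, against 0.09 for all genes.

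Inflammatory cytokines rose on HFD, and the changes of the CHOW libraries beside them were positive too. Of 16 cytokines and mediators, 11 were called higher and none lower, with a median of 1.55 on HFD beside 1.53 on CHOW. With the adipocyte score in the fit none of the 16 was called with limma (4 at an unadjusted p under 0.05), and the median was 0.84. Tnf ran from 88.8 to 771 TPM (median 344) at 8 weeks and from 1161 to 1945 TPM (median 1613) at 20 weeks, a change of 2.27 (SE 0.38, adjusted p 0.000601) beside 1.46 (SE 0.44) on CHOW. Il1a, interleukin 1 alpha, ran from 9.39 to 40.1 TPM (median 21.1) at 8 weeks and from 71.2 to 267 TPM (median 147) at 20 weeks, a change of 2.84 (SE 0.54, adjusted p 0.00208) beside 2.63 (SE 0.63) on CHOW. Neither gene overlapped between the HFD groups. Il12b, a chain shared by interleukins 12 and 23, went from 3.26 ± 1.57 to 18.6 ± 11.3 TPM on HFD (2.12, adjusted p 0.000695). Il6 changed by 1.54, adjusted p 0.0497 and was called in 2 of the 12 fits that left out a library. Il1b did not pass the test (1.84, adjusted p 0.0593) although its libraries did not overlap, at 149.6 to 808 TPM at 8 weeks and 1093 to 2013 TPM at 20 weeks. Nos2, which makes nitric oxide, and Ptgs2, a prostaglandin synthase, were not called (-0.37, adjusted p 0.451 and 0.20, adjusted p 0.832).

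Further cytokine and growth factor genes ranked among the strongest increases. Il23a, the other chain of interleukin 23, ran from 0 to 0.992 TPM (median 0.368) at 8 weeks and from 4.79 to 34 TPM (median 10.5) at 20 weeks, a change of 3.18 (SE 0.42, adjusted p 5.71e-05). Tnfsf4, which encodes the T cell costimulator OX40L, ran from 0.115 to 2.12 TPM (median 1.08) at 8 weeks and from 12.6 to 31 TPM (median 14) at 20 weeks, a change of 3.06 (SE 0.29, adjusted p 3.88e-06). Tnfsf9, which encodes the ligand of the T cell receptor 4-1BB, ran from 32.7 to 173 TPM (median 74.8) at 8 weeks and from 535 to 755 TPM (median 593) at 20 weeks, a change of 2.98 (SE 0.37, adjusted p 3.33e-05). On CHOW the log2 changes of these 3 were 1.02, 1.30 and 1.86, in the same direction. Ereg, an epidermal growth factor receptor ligand, went from 1.25 ± 0.914 to 16.9 ± 14.2 TPM (2.82, adjusted p 6.4e-05). Il10, listed with the regulatory T cell genes though macrophages make it too, ran from 18.1 to 142 TPM (median 66.7) at 8 weeks and from 124 to 495 TPM (median 330.0) at 20 weeks, a change of 2.31 (SE 0.51, adjusted p 0.00718).

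Of 27 chemokine genes tested, 10 were called higher and 3 lower, and the 3 lower ones were the genes Ccl24, Ccl26 and Ccl17 given above. None was called with limma in the fit with the adipocyte score (10 at an unadjusted p under 0.05). Cxcl5, a neutrophil attractant, ran from 0.959 to 18.1 TPM (median 5.23) at 8 weeks and from 18.5 to 110.4 TPM (median 32.1) at 20 weeks, a change of 2.64 (SE 0.70, adjusted p 0.022), whose call was lost without HFD 8 week replicate 3. On CHOW it changed by 2.38 (SE 0.81). Ccl4 changed by 2.27 (SE 0.48, adjusted p 0.00485) beside 3.07 (SE 0.56) on CHOW, and Cxcl1, named after its value was seen, by 1.80 (SE 0.32, adjusted p 0.00135) beside 2.44 (SE 0.38). Ccl2, the ligand of CCR2, went from 815 ± 225 to 2541 ± 1297 TPM (1.55, adjusted p 0.00144) while Ccr2 itself fell. Of 20 chemokine receptors, 5 were called lower, among them Ccr1 (-1.01, adjusted p 0.00188) and the scavenger receptor Ackr3 (-0.83, adjusted p 0.0499), and 1 was called higher, Ccrl2 (1.31, adjusted p 0.0201).

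Type I interferon genes gave a mixed picture. Ifnb1, interferon beta, ran from 0 to 4.64 TPM (median 1.04) at 8 weeks and from 4.21 to 53.8 TPM (median 36.8) at 20 weeks on HFD, a change of 3.55 (SE 0.61, adjusted p 0.000801), beside 5.24 (SE 0.70) on CHOW. Oasl1 (2.20, adjusted p 0.00264) and Ifit1 (1.35, adjusted p 0.0449) were called higher, and Ifi27l2a (-1.03, adjusted p 0.00582) was called lower. Of 20 genes of the list, 4 were called higher and 2 lower, and the median was -0.17, while 1 was called higher and none lower with the adipocyte score in the fit. Most response genes, such as Mx1 (-0.02) and Irf7 (-0.40), were not called.

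Lymphocyte genes were grouped by cell type. Of 14 B cell genes 2 were called higher, Cd22, an inhibitory receptor (4.96 ± 3.18 to 14.1 ± 4.91 TPM, 1.42, adjusted p 0.00262), and Blnk, an adaptor that macrophages also express (56.8 ± 23.4 to 119 ± 26.8 TPM, 1.12, adjusted p 0.00174). Of 16 plasma cell genes 1 was called, Prdm1, a transcription factor also found in macrophages (11.3 ± 6.59 to 38.5 ± 6.52 TPM, 1.87, adjusted p 0.00158). Jchain, the joining chain of secreted antibody, was not called (0.79, adjusted p 0.345). Igkv4-55, a kappa V segment, had 7.01, 4.32, 0, 3.55, 4.72 and 3.06 TPM at 8 weeks and 20.7, 50.7, 50.6, 31.3, 38.7 and 55.1 TPM at 20 weeks, a change of 3.30 (SE 0.78, adjusted p 0.0115). That call was lost without the 3 libraries. Over all 177 immunoglobulin V segments tested, 7 were called higher and 1 lower, with a median of 0.34. Of all genes tested, 6.12% were called higher and 2.65% lower. Reads shared between segments make single values uncertain. The plasma cell list had a median of 0.87 on HFD beside 1.48 on CHOW.

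Of 17 T cell genes 2 were called higher, beside 6.12% of all genes tested. They were Cd8a and Cd8b1, the chains of CD8, named after their values were seen. Cd8b1 ran from 0.725 to 1.8 TPM (median 1.46) at 8 weeks and from 2.09 to 4.9 TPM (median 2.91) at 20 weeks, a change of 0.81 (SE 0.25, adjusted p 0.0441), and Cd8a changed by 0.73, adjusted p 0.0468. The calls appeared in only 4 and 3 of the 12 fits that left out a library. Cd3e was at 1.85 ± 0.623 and 3.4 ± 1.04 TPM and was not called (adjusted p 0.0948), nor was Cd4 (-0.18, adjusted p 0.577). The granzymes, proteases of cytotoxic granules, went opposite ways. Gzma ran from 13.3 to 19 TPM (median 16.8) at 8 weeks and from 1.46 to 7.45 TPM (median 3.81) at 20 weeks, a change of -1.89 (SE 0.23, adjusted p 3.16e-05). Gzmb, which mast cells can also express, ran from 4.59 to 7.94 TPM (median 5.26) at 8 weeks and from 12.7 to 30.1 TPM (median 21.1) at 20 weeks, a change of 1.65 (SE 0.20, adjusted p 2.06e-05). For both granzymes the times did not overlap. Ncr1, a marker of NK cells, was at 2.06 and 0.686 TPM on average and was not called (-0.83, adjusted p 0.0737).

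Genes of type 2 immunity moved in different directions, with 2 of 12 tested called higher and 1 lower. None of these, of the 17 T cell genes or of the 8 regulatory T cell genes was called with limma in the fit with the adipocyte score (0 at an unadjusted p under 0.05 in each list). Il33, the alarmin made by progenitors and mesothelium, ran from 5.83 to 21.8 TPM (median 14.1) at 8 weeks and from 23.6 to 57.3 TPM (median 42.5) at 20 weeks, with no overlap and a change of 1.55 (SE 0.36, adjusted p 0.0096). Crlf2, a chain of the TSLP receptor, changed by 0.59, adjusted p 0.0367. Klrg1, a receptor of group 2 innate lymphoid cells and of T cells, named after its value was seen, fell from 4.26 ± 1.91 to 1.4 ± 0.446 TPM (-1.08, adjusted p 0.0147). The cytokines themselves were not called, with Il4 at 0.07, adjusted p 0.941, Il5 at -0.98, adjusted p 0.234 and Il13 at 0.36, adjusted p 0.647. Il2ra, a chain of the interleukin 2 receptor, fell from 6.17 ± 2.57 to 2.76 ± 0.782 TPM (-0.88, adjusted p 0.0378), and Foxp3, the regulatory T cell factor, was at 1.89 ± 1.22 and 0.67 ± 0.389 TPM (-0.72, adjusted p 0.0729).

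Of the genes of neutrophils and dendritic cells 1 was called, beside 8.78% of all genes tested in either direction. None of 10 neutrophil genes was called with limma in either direction (1 lower at an unadjusted p under 0.05), and S100a8 ranged from 8.62 to 100.1 TPM at 8 weeks and from 7.32 to 122 TPM at 20 weeks. Of 12 dendritic cell genes only Cd209a was called, and Flt3 (-0.65, adjusted p 0.176) and Zbtb46 (0.05, adjusted p 0.918) were not. Of 10 genes of MHC class II presentation 2 were called lower, the chaperone genes H2-DMb2 (-1.33, adjusted p 0.00174) and H2-DMa (-0.69, adjusted p 0.0454), and without the 3 libraries 7 were. The class II chain H2-Aa was at 3222 ± 1111 and 2453 ± 271 TPM and was not called.

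The fibroblast-like genes of the paper were found in isolated adipocytes, with HFD set against the control diet. That is another cell fraction and another contrast than the SVF over time. For the SVF, the paper reports by quantitative PCR that collagens and fibronectin were similarly upregulated on both diets at its last time. That time is later than those compared here. No collagen gene was called higher in the SVF between 8 and 20 weeks of HFD, which does not test either result. Of 18 collagen chains none was called higher with limma, 0 at an unadjusted p under 0.05, and 1, Col14a1, was called lower (110.4 ± 25.7 to 60.5 ± 22.9 TPM, -0.90, adjusted p 0.0378). Col1a1 ran from 221 to 564 TPM (median 430.4) at 8 weeks and from 237 to 506 TPM (median 329) at 20 weeks and was not called (-0.14, adjusted p 0.805), nor was Col1a2 (-0.04, adjusted p 0.939). Of 17 matricellular and elastic fibre genes, Fbln1, fibulin 1, was called higher (0.76, adjusted p 0.0439) and Fn1, fibronectin, lower (-0.79, adjusted p 0.0264). The metalloproteinases cut matrix, and more of them were called. Of 18 genes of these enzymes and their inhibitors, 7 were called higher and 2 lower. Mmp2 ran from 82.5 to 197 TPM (median 138) at 8 weeks and from 260.2 to 416 TPM (median 371) at 20 weeks, with no overlap and a change of 1.48 (SE 0.19, adjusted p 3.5e-05). Mmp3, Mmp13 and Mmp11 changed by 2.16, 2.01 and 1.39. Of the 18, 1 was called with the adipocyte score in the fit.

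Of 17 progenitor genes 2 were called higher and 2 lower, beside 6.12% and 2.65% of all genes tested. None was called with limma in the fit with the adipocyte score (6 at an unadjusted p under 0.05). Dpp4, which marks early progenitors of the interstitium, ran from 22.6 to 59.7 TPM (median 31.5) at 8 weeks and from 8.49 to 18.5 TPM (median 12.4) at 20 weeks, a change of -1.40 (SE 0.25, adjusted p 0.00135). Cd55, another early marker, fell from 152 ± 46.6 to 73.6 ± 20.6 TPM (-1.04, adjusted p 0.0099). Mgp, matrix Gla protein, rose from 242 ± 108 to 773 ± 308 TPM (1.66, adjusted p 0.00158) and Lum, lumican, from 223 ± 82.3 to 378 ± 61.3 TPM (0.83, adjusted p 0.0177). Pdgfra, carried by nearly all of these cells, was at 71.8 ± 18.5 and 95.9 ± 22.6 TPM and was not called (0.42, adjusted p 0.114). Of 18 endothelial genes only Tek was called, lower (-0.72, adjusted p 0.0487), and its call held in 2 of the 12 fits that left out a library. Of 11 pericyte and smooth muscle genes only Acta2, smooth muscle actin, was called, lower (-0.98, adjusted p 0.0291).

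Mesothelial genes, of the layer that covers the fat pad, had a negative median. Of 14 listed, 3 were called lower and none higher (12 lower at an unadjusted p under 0.05), with a median of -1.18 on HFD beside 0.76 on CHOW. Of all 16808 genes tested, 4571 had such an unadjusted p, in either direction. None was called with limma in the fit with the adipocyte score (1 at an unadjusted p under 0.05). Aldh1a2, which makes retinoic acid, ran from 27.1 to 59.3 TPM (median 51) at 8 weeks and from 13.8 to 31.3 TPM (median 19.2) at 20 weeks, a change of -1.18 (SE 0.19, adjusted p 0.000513). Msln, mesothelin, fell from 74.9 ± 47.7 to 20.04 ± 8.03 TPM (-1.59, adjusted p 0.0345) and Krt19 from 38.9 ± 19.9 to 11.3 ± 5.27 TPM (-1.53, adjusted p 0.03), but the libraries overlapped and both calls were lost in at least 6 of the 12 fits that left out a library. Wt1 was at 50.9 ± 22.2 and 51.1 ± 15.4 TPM. Krt80, a keratin outside the lists, ran from 10.7 to 21.5 TPM (median 18.2) at 8 weeks and from 1.62 to 4.97 TPM (median 3.28) at 20 weeks, with no overlap and a change of -2.10 (SE 0.23, adjusted p 7.69e-06).

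Adipocyte transcripts left in the pellet fell on HFD. Of 20 listed, 14 were called lower and none higher, with a median of -1.23 on HFD beside -1.08 on CHOW. Cfd, adipsin, fell from 86.6 ± 78.1 to 11.8 ± 3.58 TPM (-2.22, adjusted p 0.00803), and Lep, leptin, from 32 ± 12.1 to 10.5 ± 8.3 TPM (-1.75, adjusted p 0.0223). Adipoq, adiponectin, was named after its value was seen and fell from 84.3 ± 38.3 to 30.9 ± 8.08 TPM (-1.33, adjusted p 0.00442). Erythroid genes fell too, 5 of 7 tested, with Hbb-bs at 16465 to 126855 TPM at 8 weeks and 5242 to 12481 TPM at 20 weeks (-2.36, adjusted p 0.00173). Hbb-bt and Hba-a1 changed by -2.36 and -2.08, and each has a near copy. None of the 17 germ cell genes tested was called with limma, although 12 were higher at an unadjusted p under 0.05 and their median was 2.55.

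Among the remaining lists, 7 of 15 complement genes were called higher, and 2 with the adipocyte score in the fit. C7, a component of the membrane attack complex, ran from 45.1 to 278 TPM (median 91.2) at 8 weeks and from 308 to 703 TPM (median 397) at 20 weeks, a change of 2.05 (SE 0.31, adjusted p 0.000225). C4b changed by 1.39, adjusted p 1.56e-05 and C5ar1, the C5a receptor, by 1.37, adjusted p 0.00218. Of 12 genes of Toll-like receptor signalling, Tlr13 (1.54, adjusted p 0.0234), Tlr1 (1.29, adjusted p 0.0334) and Tlr2 (0.90, adjusted p 0.0303) were called higher together with Myd88, while Tlr5, the flagellin receptor, ran from 5.13 to 9.69 TPM (median 6.45) at 8 weeks and from 1.11 to 2.9 TPM (median 1.83) at 20 weeks and changed by -1.44 (SE 0.19, adjusted p 5.81e-05). None of these 12 was called with limma in the fit with the adipocyte score (4 at an unadjusted p under 0.05). The metallothionein genes Mt1 and Mt2 changed by 0.80 and 1.26 on HFD beside 0.87 and 1.49 on CHOW. Ferritin light chain, Ftl1, rose from 8621 ± 2593 to 13735 ± 2877 TPM (0.70, adjusted p 0.0316), and the transferrin receptor Tfrc fell (-0.85, adjusted p 0.0453).

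Cell cycle and respiratory genes gave no calls. None of 30 genes of mitosis and DNA replication passed with limma (3 higher at an unadjusted p under 0.05), the median was 0.21, and Mki67 ran from 7.35 to 34.1 TPM (median 18.2) at 8 weeks and from 27.8 to 51.3 TPM (median 42.1) at 20 weeks (1.07, adjusted p 0.0721). None of 28 nuclear respiratory chain genes passed (2 unadjusted), with a median of 0.10 that became -0.15 with quantile normalization. None of the 13 mitochondrially encoded ones passed (10 lower unadjusted), with a median of -0.69. That median was -0.35 without the 3 libraries and 0.16 with the adipocyte score in the fit. Their summed TPM reached 226472 in the highest HFD 8 week library, beside a group median of 57017. Of 20 immediate early and heat shock genes, which digestion of tissue can induce, 1 was called higher, Zfp36 (0.71, adjusted p 0.0178), and 1 lower, Klf4 (-0.83, adjusted p 0.0172). Over all genes tested the shares were 6.12% and 2.65%.

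Whether the change with time differed between HFD and CHOW was tested as an interaction. It was called for 50 genes (0.297% of those tested), with the HFD change above the CHOW change for 27 and under it for 23, and 49 of the 50 were also called on HFD. Of the 1475 genes called on HFD, 1085 (73.6%) had a CHOW change of the same sign, whatever its size. The number of calls was 22 without HFD 20 week replicate 2 and 129 without HFD 8 week replicate 2. Mast cell genes were among those with the more positive HFD change. Tpsb2 had 74.1, 86.1, 81.2 and 129 TPM on CHOW at 8 weeks and 145, 185, 141, 141 and 129.8 TPM at 20 weeks, a change of 0.70 (SE 0.32), and its HFD change differed from that by 2.62 (SE 0.42, adjusted p 0.0108). Tpsab1 differed by 3.20 (SE 0.55, adjusted p 0.0155), Cma1 by 2.47 (SE 0.52, adjusted p 0.0426) and Fcer1a by 2.61 (SE 0.56, adjusted p 0.047). At 8 weeks all 6 HFD libraries were below all 4 CHOW libraries for Tpsb2 and Tpsab1, and at 20 weeks all 6 HFD libraries were above all 5 CHOW libraries for Tpsb2. Of the 9 granule genes tested 6 were called in the interaction, and of the 16 receptors and regulators 3.

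The other side included genes of resident and alternatively activated macrophages. It also held Foxp3 (-1.93), Klrg1 (-1.93) and Krt80 (-1.69), which are in neither of those lists. Retnla had 4676, 4808, 1647 and 6442 TPM on CHOW at 8 weeks and 6179, 1399, 3734, 2720 and 2197 TPM at 20 weeks, a change of -0.46 (SE 0.42), and the HFD change differed by -3.03 (SE 0.55, adjusted p 0.0184). Cd209a, listed with the dendritic cell genes, had the smallest adjusted p of those named. On CHOW it ran from 34 to 74.5 TPM at 8 weeks and from 52.4 to 81.4 TPM at 20 weeks. It differed by -2.60 (SE 0.35, adjusted p 0.00188). Cd209b differed by -2.42 (SE 0.34, adjusted p 0.00264), Cd209d by -2.86 (SE 0.44, adjusted p 0.00673), Mgl2 by -2.35 (SE 0.47, adjusted p 0.0317) and Rnase2a by -5.69 (SE 0.95, adjusted p 0.0135). Of the 16 resident perivascular genes 5 were called. Lyve1, for example, changed by -1.84 on HFD and 0.12 on CHOW (interaction adjusted p 0.0155).

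The interaction was not called for any of the 18 lipid-associated genes, the 16 inflammatory genes or the 20 adipocyte genes with limma. At an unadjusted p under 0.05 the numbers were 13, 1 and 1, beside 2318 of all 16808 genes tested. A missed call does not show that they changed alike on both diets. For Gpnmb the difference was 1.58 (SE 0.77, adjusted p 0.365), and 1 CHOW library of 20 weeks reached 575 TPM beside a median of 79.5. For Tnf it was 0.81 (SE 0.58, adjusted p 0.516) and for Ccl2 -0.80 (SE 0.43, adjusted p 0.4).

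**Figure D4:**
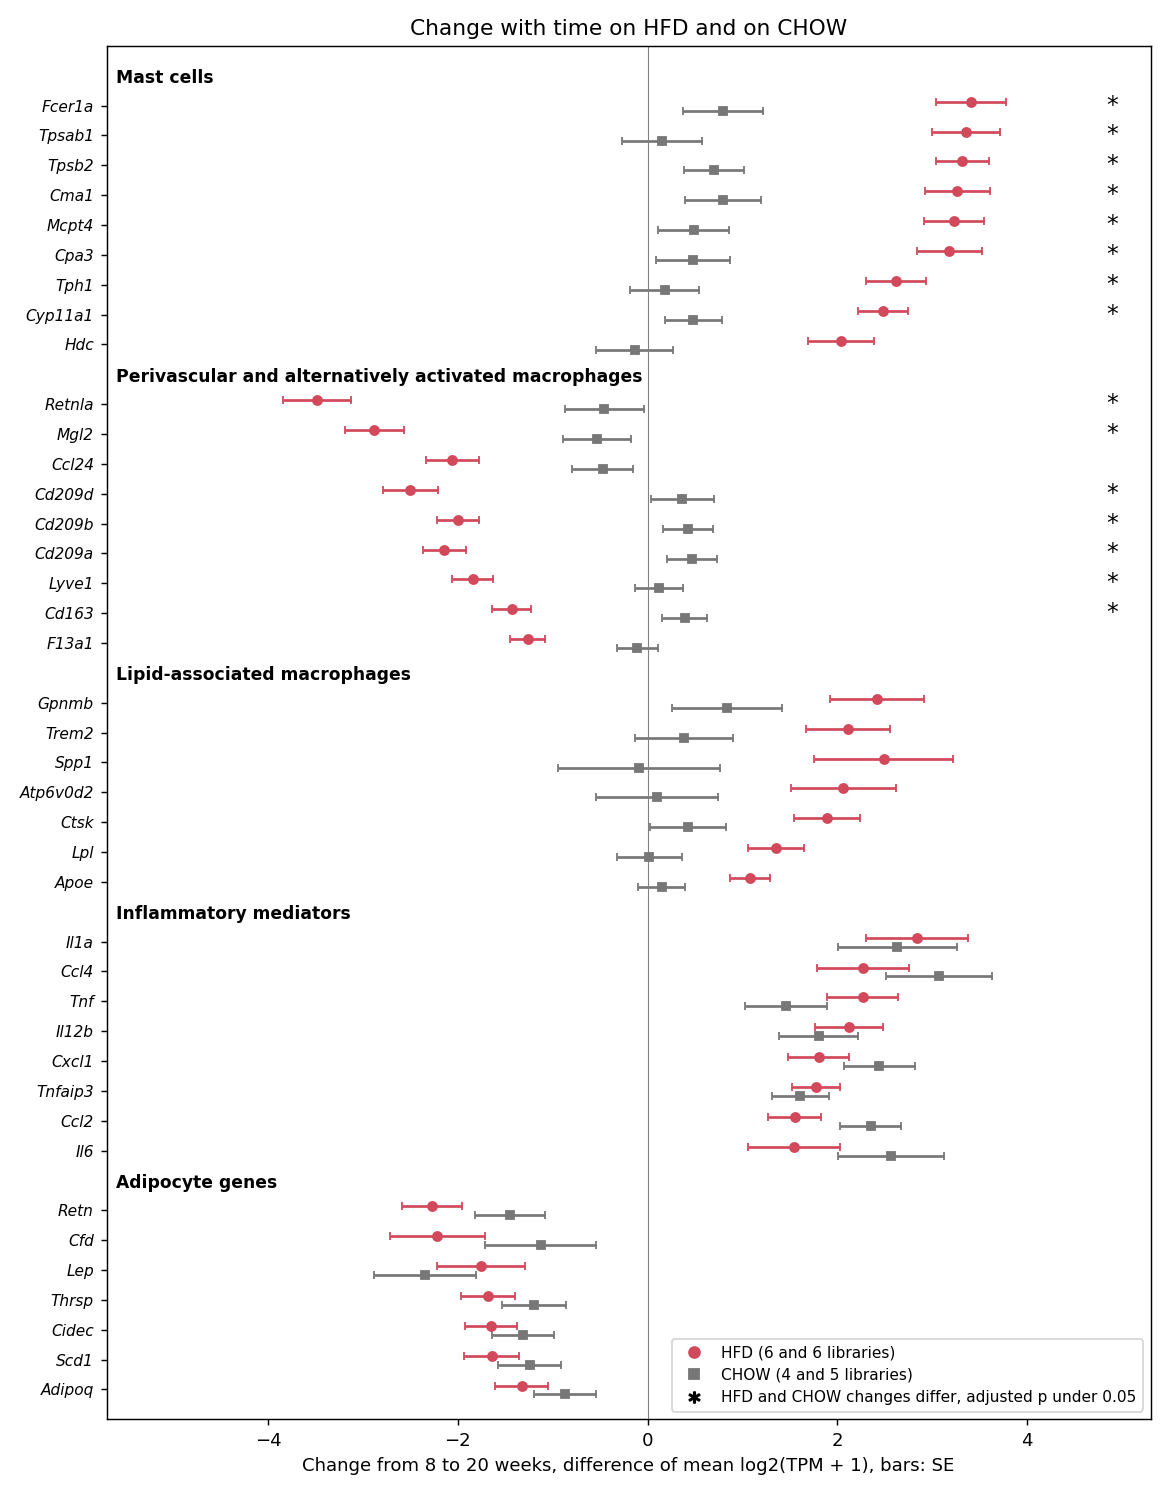
Change from 8 to 20 weeks on the log2(TPM + 1) scale (x axis) on HFD (circles) and CHOW (squares) for genes of 5 groups (y axis), with bars for the SE and a star where the interaction had an adjusted p under 0.05. The HFD and CHOW changes lie far apart for Tpsab1 (3.35 and 0.15) and Lyve1 (-1.84 and 0.12), both starred, and close together for Il1a (2.84 and 2.63).

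Levels after 34 weeks of HFD come from 6 libraries in a table that was normalized separately, and no test was made across the tables. Tpsb2 ran from 234 to 834 TPM (median 599.9) and Fcer1a from 18.1 to 68.9 TPM (median 44.4), close to the range of 20 weeks, while Tpsab1 had a lower median of 46.6 TPM. Retnla ran from 41.6 to 749 TPM (median 210.1) and Mgl2 from 9.97 to 21.9 TPM. Rnase2a was listed at 0 in 5 of the 6 and at 0.35 TPM in the last. Trem2 had a median of 858 TPM. Of the cytokine genes, Tnf had a median of 298 TPM, Il1a of 25.4 and Tnfsf9 of 121, nearer the levels of 8 than of 20 weeks, and Ifnb1 was listed at 0 in 4 of 6 libraries.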

How the data were processed

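RNA of the SVF was sequenced from stranded poly(A) libraries on a NextSeq instrument. The authors trimmed reads with Trimmomatic, checked them with FastQC and MultiQC, quantified them with Salmon against gencode M10 protein coding and long noncoding transcripts, summed transcripts to genes and deposited TPM, a share of transcripts corrected for length, for 32098 genes. For versions of these tools, none was given in the sources used here. TPM keeps no depth and no counts, so sequencing depth is unknown, and the count test of the study (DESeq2) could not be run. Symbols came from gencode M21 (31791 IDs matched, 24748 with the same version).

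Genes with at least 1 TPM in at least 4 of the 21 libraries of 8 and 20 weeks entered limma 3.58.1 (R 4.3.3, trend) on log2(TPM + 1) with 4 group means, which understates changes of low genes. The code was tested on simulated data. Genes were called at a Benjamini-Hochberg adjusted p under 0.05 over 16808 genes, and every p for a gene is from this fit unless another fit is named. Alternatives were other pseudocounts, filters, scalings, weights, covariates and left-out libraries. The 44 gene lists and the tests were chosen with earlier results of these data known. Named genes were the 15 with the largest change in each direction (called, mean of 5 TPM or more in a group, no overlap), up to 4 called members of each list, the 5 with the smallest interaction p, the ribonuclease A and resistin paralogs, and Kit. Other genes were named after their values were seen. Some genes are not reported here.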

Additional observations from a re-analysis of the deposited data

Results flagged for a closer look

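In 8 of 34 groups of libraries 1 library stood far from the others by Dixon's criterion, which chance gives in about 1 of 20 groups. Igkv4-55 was listed at 0 TPM in HFD 8 week replicate 3. Ccl26 was at 1.45 on the log2(TPM + 1) scale in HFD 20 week replicate 4 and at 0 in the other libraries of that group. Erythroid genes took 26.8% of TPM in HFD 8 week replicate 6 and 3.05% in HFD 20 week replicate 3. Germ cell genes summed to 1274 TPM in HFD 8 week replicate 4 and to 14575 TPM in HFD 20 week replicate 5. For seminal vesicle genes the sum was 123060 TPM in HFD 8 week replicate 3. The adipocyte score was 4.63 in HFD 20 week replicate 4. The part of these libraries in the results was not tested beyond the fits that left them out.

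The change with time differed between HFD and CHOW by the interaction test of limma for 22 of the genes reported here. On the log2 scale, the HFD change minus the CHOW change was positive for the mast cell genes Tpsab1 (3.20), Mcpt4 (2.75), Cpa3 (2.70), Tpsb2 (2.62), Fcer1a (2.61), Cma1 (2.47), Tph1 (2.44), Tpsg1 (2.35) and Cyp11a1 (2.00). It was also positive for Gzmb (1.52). It was negative for Rnase2a (-5.69), Retnla (-3.03), Mgl2 (-2.35) and Krt80 (-1.69), and for Lyve1 (-1.96), Cd163 (-1.82), Klrg1 (-1.93) and Foxp3 (-1.93). The lectins Cd209d (-2.86), Cd209a (-2.60), Cd209b (-2.42) and Cd209g (-2.02) were negative as well.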

How the results depend on the processing

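With the 3 scalings, the weights and the block, most calls of named genes kept their direction and their side of the threshold, and 112 of 114 did so under quantile normalization and 112 under median-ratio scaling. With the adipocyte score as a covariate 31 did, 77 lost the call and 6 turned, namely Spp1 (-0.26), Adgre1 (-0.067), Cfd (0.012), Cyp2e1 (0.69), Soat1 (-0.024) and Tlr2 (-0.031, all log2 changes). Without HFD 8 week replicates 3 and 6 and HFD 20 week replicate 5, 82 kept it and 32 lost it, and the cause was not tested. The count of called genes was 1475, and became 2441 with median-ratio scaling, 2754 with quantile normalization, 866 with the 12 HFD libraries alone, 126 with the adipocyte covariate and 607 without HFD 20 week replicates 3, 4 and 5, a choice made after seeing the data. Genes called higher numbered 1029, and 555 with the 12 HFD libraries alone, 88 with the covariate, 442 without the 3 libraries and 403 without replicates 3, 4 and 5. Genes called lower numbered 446, and 998 with median-ratio scaling, 1630 with quantile normalization, 1164 when rescaled without genes of blood, germ cells, seminal vesicle and epididymis, 1184 with sample weights, 38 with the covariate and 204 without replicates 3, 4 and 5. Higher genes made up 41.5% of calls when rescaled, 42.9% with weights and 41.8% without the 3 libraries. Interaction calls numbered 50, and 32 without a filter, 85 with median-ratio scaling, 104 with quantile normalization, 400 with weights and 32 with the replicate block.

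Leaving out each HFD library in turn gave 932 to 1842 called genes, 598 to 1448 higher, 271 to 726 lower and 22 to 129 in the interaction. Without HFD 8 week replicate 6 there were 932 called and 598 higher. Genes lower became 289 without HFD 20 week replicate 3, 288, 726 and 271 without HFD 8 week replicate 1, 3 and 5. The number of these 12 fits in which the call of a gene picked by the naming rule was lost was 1 for C1qc, Cxcl5 and Lep, 2 for Ace and Adgre1, 3 for Atp6v0d2, Fn1, Tlr13 and Tlr2, 4 for Acta2 and Siglecf, 5 for Kit and Tlr1, 6 for Crlf2, Krt19 and Soat1, 7 for Ackr3, C1qb, Col14a1, Ftl1 and Msln, 8 for Cyp2e1, Il2ra, Msr1, Spp1 and Tfrc, 9 for Fbln1, H2-DMa and Ifit1, 10 for Tek, and 0 for the other called genes that the naming rule picked. The single libraries that took most calls were HFD 8 week replicate 6 (24 genes) and replicate 5 (23). The interaction gave 23, 22 and 23 without HFD 20 week replicate 1, 2 and 6, and 23, 129 and 33 without HFD 8 week replicate 1, 2 and 6.

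Same-numbered libraries of the HFD groups were not taken as paired in the main fit, as the labels do not tie them. Yet 8 of 12 libraries were closest to their own number. The correlations of deviations ran from 0.0475 to 0.404, with 4 of 6 pairs over 0.1. What the numbers share was not tested. With the replicate block 1966 genes were called, and 1340 with the block and the 12 HFD libraries alone. Interaction calls fell from 50 to 32 with the block. Depth is unknown for TPM, so the precision of low values could not be given.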
